A study of Mus musculus with 12 samples.

Results

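The respiratory chain and ATP synthase genes that the nucleus encodes were followed in BV2 cells, a mouse microglial cell line grown in culture, after the transcription factor PU.1 had been lowered or raised. Members were chosen by symbol alone: numbered Nduf genes of the a, b, c, s and v series for complex I, Sdha to Sdhd for complex II, Uqcr for complex III, Cox4 to Cox8 for complex IV and Atp5 for complex V. This rule found 83 genes among 24058, of which 36 fell to complex I, 4 to complex II, 8 to complex III, 18 to complex IV and 17 to complex V. The rule itself uses no measured value, but it was set with earlier results of these data known.

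RNA sequencing libraries had been made from sorted BV2 cells in 4 groups of 3. They were Spi1 knockdown by a transient short hairpin RNA with its scrambled control, and Spi1 overexpression from a transient cDNA with its empty control. Spi1 encodes PU.1, an ETS family factor that myeloid cells need. The cells were otherwise untreated, and all came from the same line. Whether the 3 libraries of each group stem from independent cultures is not given in the labels. The p-values thus describe variation among the libraries sequenced, part or all of which may be technical.

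Complexes I to IV pass electrons to oxygen along the inner mitochondrial membrane and, except for complex II, pump protons across it; complex V uses the resulting gradient to make ATP. Complexes I, III, IV and V also contain subunits encoded by mitochondrial DNA, which were not analysed here, whereas complex II is encoded by the nucleus alone. Nuclear respiratory genes are known targets of the factors NRF1, GABPA and YY1, and GABPA belongs to the same ETS family as PU.1. In microglia and macrophages the balance between respiration and glycolysis is known to change with inflammatory activation.

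Reads on genes came to 22.3 to 33.1 megareads per library. Spi1 stood at 50.9, 42.4 and 52.3 FPKM (reads per kilobase of gene and megareads of library) in knockdown, against 159, 169 and 168 FPKM in scrambled controls, and at 287, 224 and 206 FPKM in overexpression, against 158, 117 and 131 FPKM in empty controls. Of 12 microglia and macrophage markers, 10 averaged above 0.5 FPKM, the exceptions being Cx3cr1 and P2ry12. Their summed level was 2350 to 3157 FPKM in knockdown, 3951 to 4805 FPKM in scrambled controls, 4047 to 5545 FPKM in overexpression and 3638 to 5063 FPKM in empty controls, so it was lower in every knockdown library than in every scrambled control. Rbfox3, Snap25 and Syt1, which define neurons, were at 0 in all 12 libraries. The 4 endothelial markers, of which 1 averaged above 0.5 FPKM, summed to 37.5 to 41.7 FPKM in knockdown and 29.2 to 33.6 FPKM in scrambled controls. That 1 was Flt1, at 20.7 to 41.6 FPKM over 12 libraries, while Cldn5, Cdh5 and Tek reached at most 0.194 FPKM. Lyz2, the highest of the microglia and macrophage markers, ranged from 935 to 3708 FPKM. The part of these marker shifts in the results was not tested.

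Of the 83 members, 79 had reads in all 12 libraries and 78 averaged at least 1 FPKM in each experiment and were tested. The 5 others, Cox4i2, Cox6b2, Cox7b2, Cox8b and Cox8c, are described by their reads. Members held 0.832% to 0.957% of each library's reads. Their summed level lay between 9175 and 10382 FPKM, and complex V held 29.9% to 33.0% of it, complex I 25.6% to 27.2% and complex IV 25.4% to 27.3%.

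Levels among the members were unequal even within a complex. Ndufb8, an accessory subunit of the membrane arm, was the highest complex I gene at a mean of 192 FPKM over 12 libraries, against a complex I median of 65.3 FPKM and a lowest value of 10.9 FPKM for Ndufa11. Sdhb, the iron-sulphur subunit of complex II, averaged 178.5 FPKM, and the membrane anchor subunit gene Sdhd was the lowest of that complex at 92.2 FPKM. In complex III the span ran from 78.1 FPKM for the core subunit Uqcrc2 to 205 FPKM for Uqcrq, in tested complex IV genes from 2.14 FPKM for Cox7a1 to 616 FPKM for Cox4i1, and in complex V from 6.13 FPKM for Atp5s to 604.5 FPKM for Atp5b, the catalytic beta subunit. The 2 lowest complex V entries, Atp5s and Atp5sl, are Dmac2l and Dmac2 in current RefSeq nomenclature. Atp5sl averaged 7.34 FPKM, and neither name is that of a structural subunit of ATP synthase. Likewise Ndufa4 is now placed in complex IV and Cox7a2l is known as a factor of supercomplex assembly, but both were kept where their symbols put them.

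With Spi1 lowered, the respiratory genes as a group moved little. In limma with Benjamini-Hochberg (BH) adjustment over all 11214 genes tested, 4 of 78 members passed an adjusted p of 0.05, 3 higher and 1 lower in knockdown, which is 5.13% of members beside 26.3% of all genes. By direction, 17.4% of all genes were called higher and 8.86% lower. The members higher were Ndufa12, Ndufb3 and Ndufa8, all of complex I, and the 1 lower was Sdhd of complex II. A log2 fold change smaller than 0.25 in size was fitted for 71 of 78 members, or 91.0%, and for 69.1% of all genes. In these bulk samples of a cell line, a change in part of the cells and a smaller change in every cell cannot be told apart.

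**Figure D1:**
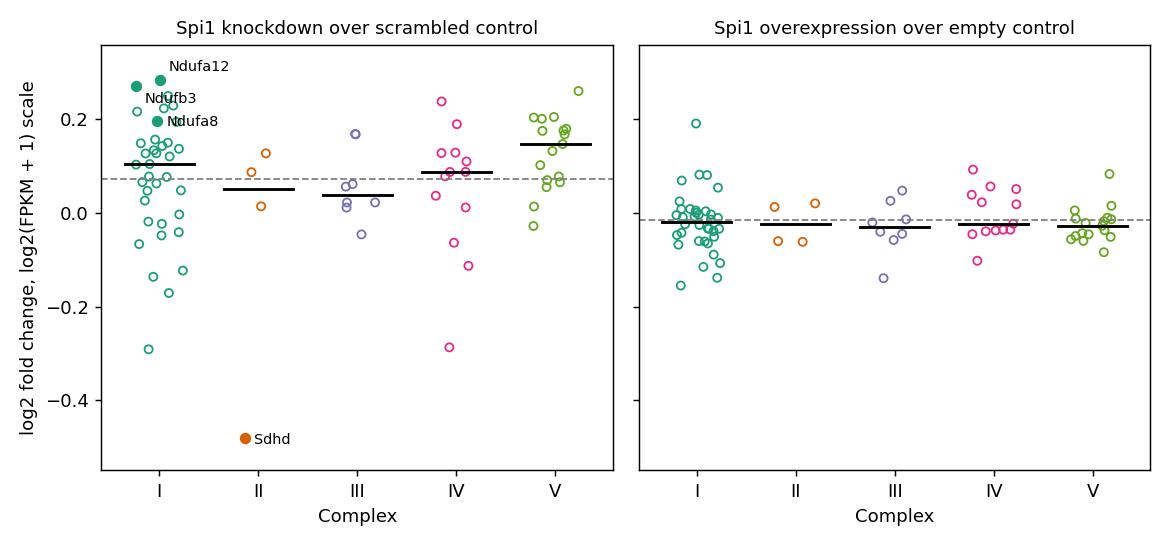
Log2 fold changes on the log2(FPKM + 1) scale of the 78 tested members by complex, for Spi1 knockdown over scrambled control (left) and Spi1 overexpression over empty control (right). Each point is 1 gene, filled where its adjusted p was under 0.05, black bars are the complex medians and the dashed line is the median of all tested genes. Sdhd lies alone at -0.48, and the overexpression points lie within -0.16 and 0.19.

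The largest change was in Sdhd, which encodes a subunit that anchors succinate dehydrogenase in the inner membrane and helps bind ubiquinone. Sdhd stood at 69.8, 70.6 and 77.6 FPKM in the 3 knockdown libraries, against 91.1, 107 and 108 FPKM in the 3 scrambled controls. Every knockdown library was below every scrambled control, and also below all 6 libraries of the other experiment, where Sdhd was at 102, 82.2 and 101 FPKM in overexpression and 103, 88.7 and 105 FPKM in empty controls. The 2 experiments share no control library, so levels across them are set side by side only. The knockdown mean was 72.7 ± 4.32 FPKM and the scrambled mean 102 ± 9.52 FPKM (SD, n = 3 each), a ratio of 0.712. The log2 fold change was -0.48, with 0.087 as its standard error (limma, BH adjusted p = 0.00945).

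The Sdhd values rested on 2382 to 3901 reads per library. With any single library left out the adjusted p in limma lay between 0.00964 and 0.0342, and with the libraries numbered 2 left out of both groups the log2 fold change was -0.43 with an adjusted p of 0.0842 (limma, BH). With median-of-ratios scaling it was -0.56 (limma, BH adjusted p = 0.00453). The 3 other complex II genes did not share the fall. Sdha, the flavoprotein that oxidises succinate, was at 118, 116 and 116 FPKM in knockdown, against 102, 106 and 113 FPKM in scrambled controls, and did not pass (limma, BH adjusted p = 0.175). Sdhb and Sdhc had log2 fold changes of 0.01 and 0.09, which did not pass either. The summed level of complex II was 519 ± 9.87 FPKM in knockdown and 528 ± 17.4 FPKM in scrambled controls (SD, n = 3 each), and these ranges overlapped. After median-of-ratios scaling, which sets libraries equal by their median gene instead of their total, the sums were 508.7, 491.75 and 509.5 in knockdown, against 533.5, 540.7 and 550.3 in scrambled controls, and no longer overlapped.

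Sdhd lies at chr9:50596357-50603812 on the minus strand of mm10 and shares its promoter region with Timm8b, a gene for a small chaperone of mitochondrial import that is read the other way. Timm8b was at 66.2, 70.3 and 72.4 FPKM in knockdown, against 69.4, 64.6 and 62.2 FPKM in scrambled controls, and these overlapped (log2 fold change 0.09, limma, BH adjusted p = 0.367). No exon of another gene in GENCODE M21 lies over an exon of Sdhd. The region holds a match to the GABPA and ETS motif CCGGAAG on the opposite strand, which begins 46 bases before the RefSeq start of Sdhd. It is shown with windows from 5 other member promoters that carry a searched motif, read from the RefSeq promoter table (GRCm38.p6, the same assembly as mm10) on the strand of the gene. Capitals mark the motif, and the windows show Sdhd, the called Ndufa8, the c subunit gene Atp5g2, the complex I gene Ndufb7, the complex IV gene Cox6a1 and the 1 member with a PU.1 match, Ndufs4.
Sdhd, chr9:50603878-50603907, minus strand, ETS: accgtctcctgcCTTCCGGttcacgcttca
Ndufb7, chr8:83566726-83566755, plus strand, ETS: agcctagatgacCCGGAAGacactgaaggg
Ndufa8, chr2:36049328-36049357, minus strand, NRF1: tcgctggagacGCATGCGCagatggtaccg
Atp5g2, chr15:102671071-102671100, minus strand, NRF1: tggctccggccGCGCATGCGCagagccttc
Cox6a1, chr5:115349102-115349131, minus strand, NRF1: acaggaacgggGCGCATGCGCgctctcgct
Ndufs4, chr13:114388097-114388126, minus strand, PU.1: ctttgagaacgGAGGAAGTgagtccctagc

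Promoters were at hand for 69 members, each 300 bases long with 50 of them after the start. The NRF1 motif GCGCATGC, on either strand, was present in 10 of 69 (14.5%), against 2.8% of 27025 promoters and 6.02% of the 8690 promoters of tested genes. The YY1 motif AAGATGGCG was present in 7 (10.1%), against 1.49% of all and 3.68% of tested promoters. All 7 matches lay after the start, with first bases at positions 23 to 36, on the strand of the gene, and none lay before it. The ETS motif CCGGAAG was in 15 (21.7%), against 9.12% of all promoters and 20.6% of those of tested genes, so its share was near that of expressed genes at large. GAGGAAGT, a PU.1 motif, was in Ndufs4 alone (1.45%), against 3.28% of all and 3.42% of tested promoters, and Ndufs4 had a knockdown log2 fold change of 0.13 that did not pass. The searched letters overlap in part, since CCGGAAG and GAGGAAGT share the ETS core, and a match is a description of letters and not a bound site. None of the 4 motifs was found in the windows of Ndufa12 and Ndufb3.

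Complex I held the 3 members that were higher in knockdown. Ndufa12, an accessory subunit of the peripheral arm, was at 48.0, 51.2 and 51.4 FPKM in knockdown, against 37.5, 42.2 and 43.7 FPKM in scrambled controls. The groups did not overlap, and the log2 fold change was 0.28 (SE 0.076, limma, BH adjusted p = 0.0323). Ndufb3, an accessory subunit of the membrane arm, was at 91.4, 93.0 and 101 FPKM in knockdown, against 73.0, 81.6 and 81.4 FPKM in scrambled controls (log2 fold change 0.27, SE 0.073, limma, BH adjusted p = 0.0337). Ndufa8, an accessory subunit on the intermembrane-space side, was at 121, 120 and 125 FPKM in knockdown, against 102, 109 and 108 FPKM in scrambled controls (log2 fold change 0.20, SE 0.060, limma, BH adjusted p = 0.0487). In all 3 genes each knockdown library also lay above all 9 other libraries of the series. The same held for 15 of 78 members in all, these 3 included, and for 6.83% of genes tested.

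These 3 rises were small and depended on the scaling. FPKM divides by the library total, and on that scale the median log2 fold change of all tested genes was 0.072, whereas median-of-ratios scaling centred it at 8.2e-05. Under the second scaling the 3 genes had log2 fold changes of 0.20, 0.19 and 0.12, with adjusted p of 0.0658 for Ndufa12, 0.0773 for Ndufb3 and 0.171 for Ndufa8 (limma, BH). No member was then called higher, against 11.2% of all genes, and 4 were called lower, against 13% of all genes. The 4 were Sdhd and the complex I genes Ndufb7, Ndufv2 and Ndufb8, and limma-voom on recovered reads called the same 4. With limma-voom that is 5.13% of members called, beside 27.6% of all genes. Sdhd was the 1 member called in the deposited scaling, in median-of-ratios scaling, with voom and with every single library left out. Without scrambled control 1, 2 or 3, and without knockdown library 1, 2 or 3, Ndufb3 and Ndufa8 never passed, and Ndufa12 passed only without scrambled control 3.

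**Figure D2:**
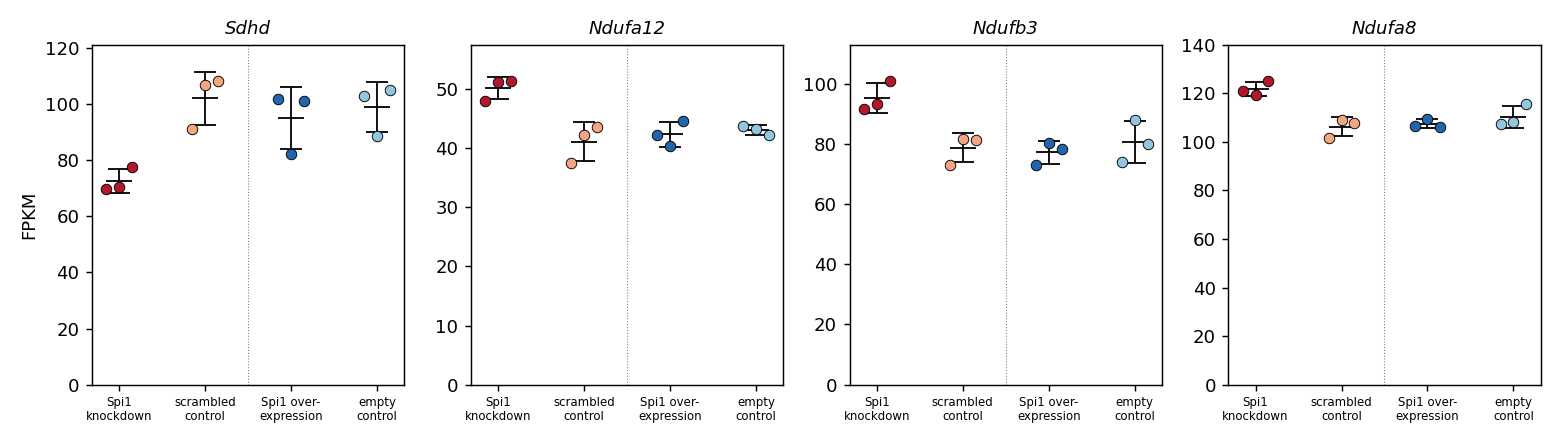
FPKM of the 4 members called in knockdown, by group. Points are the 3 libraries of a group in the order 1, 2 and 3, bars show the mean and SD, and axes start at 0. The knockdown libraries of Sdhd (69.8 to 77.6 FPKM) lie below all 9 others, and those of Ndufa12, Ndufb3 and Ndufa8 lie above all 9 others.

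Ndufb7, an accessory subunit of the membrane arm, was on the lower side of complex I. It was at 67.3, 65.8 and 77.4 FPKM in knockdown, against 75.4, 91.7 and 91.5 FPKM in scrambled controls. Knockdown library 3 overlapped scrambled control 1, and the log2 fold change of -0.29 did not pass on the deposited scale (limma, BH adjusted p = 0.0734). Ndufb8 was at 165, 170 and 179 FPKM in knockdown, against 174, 198 and 209 FPKM in scrambled controls. Ndufv2, a core subunit of the module that takes electrons from NADH, was at 33.6, 35.9 and 35.04 FPKM in knockdown, against 36.1, 38.5 and 40.6 FPKM in scrambled controls. These groups did not overlap, but its log2 fold change of -0.14 did not pass on the deposited scale (limma, BH adjusted p = 0.173).

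Libraries with the same number deviated together, so the number was also fitted as a block. On simulated reads this block fit made a larger share of false calls than its threshold of 0.05 allows, so the counts it gives may be too high. The simulated libraries had no deviations shared by number, unlike the real ones, so whether this carries over was not tested. With the block 19 members were called higher, against 30.6% of all genes, and 3 were called lower (Sdhd, Ndufb7 and Ndufb8), against 14.7% of all genes. Complex V gave 8 of the 19, complex I another 8, complex III 2 and complex IV 1. The share of members called higher under the block was thus below that of all genes. With the libraries numbered 2 left out of both groups, no member was called, while 457 genes were.

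The complex V genes leaned one way in knockdown without any of them passing on the deposited scale with the filter at 1 FPKM and no block. Under other settings without the block, Atp5g2 was called with the filter at 5 FPKM, with trend and robust options and without knockdown library 2, and Atp5j2, Atp5j and Atp5e were called with no filter. Positive log2 fold changes were fitted for 16 of 17 (94.1%), with a median of 0.147. All tested genes had a median of 0.072 and 63.0% positive values. Similar shares were positive among cytosolic ribosomal (93.5%, median 0.142), mitochondrial ribosomal (89.6%, median 0.153) and import and porin genes (90.9%, median 0.214). The lean was thus not particular to complex V. The summed level of complex V was 3222, 3274.5 and 3354 FPKM in knockdown, against 2863.5, 3011 and 3119 FPKM in scrambled controls. On this deposited scale every knockdown sum lay above every scrambled control sum, and above the sums of 2743 to 3029.5 FPKM in overexpression and 2801 to 3099 FPKM in empty controls. The means were 3283 ± 66.3 FPKM in knockdown and 2998 ± 128 FPKM in scrambled controls (SD, n = 3 each), a ratio of 1.095. After median-of-ratios scaling the complex V median was 0.067, and the sums were 3146.5, 3170 and 3240 in knockdown, against 2995, 3082 and 3150 in scrambled controls, so that knockdown library 1 fell just below scrambled control 3 and the groups overlapped.

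Within complex V, Atp5g2 came nearest to the threshold. It encodes 1 of the 3 precursors of the c subunit, which forms the rotating ring. Atp5g2 was at 221, 197 and 237 FPKM in knockdown, against 183, 174 and 188 FPKM in scrambled controls, with a log2 fold change of 0.26 (SE 0.082, limma, BH adjusted p = 0.0542; with the block it passed). Its groups did not overlap. Atp5b was at 614, 644 and 649 FPKM in knockdown, against 578, 618 and 620 FPKM in scrambled controls, which overlapped (log2 fold change 0.07). Atp5j, which encodes a peripheral stalk protein and shares exon sequence on opposite strands with Gabpa, had a log2 fold change of 0.15 that did not pass. The library kit does not mark strand, so reads over such shared sequence cannot be assigned to a strand.

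The 3 c subunit genes encode the same mature protein behind different import presequences, and their sum was 633, 628 and 649 FPKM in knockdown, against 511, 553 and 578 FPKM in scrambled controls. The groups of sums did not overlap, also after median-of-ratios scaling (608 to 627 in knockdown, against 534 to 584 in scrambled controls). Atp5g3 held most of it, 56.5% ± 2.04 in knockdown and 57.2% ± 1.17 in scrambled controls, Atp5g2 held 34.2% ± 2.66 in knockdown and 33.2% ± 2.33 in scrambled controls, and Atp5g1 held 9.24% ± 0.816 in knockdown and 9.54% ± 1.23 in scrambled controls (SD, n = 3 each). The shares overlapped between the groups, so the sum differed while the make-up was within the spread. In the other experiment the sum averaged 560 ± 17.5 FPKM in overexpression and 574 ± 24.4 FPKM in empty controls (SD, n = 3 each).

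**Figure D3:**
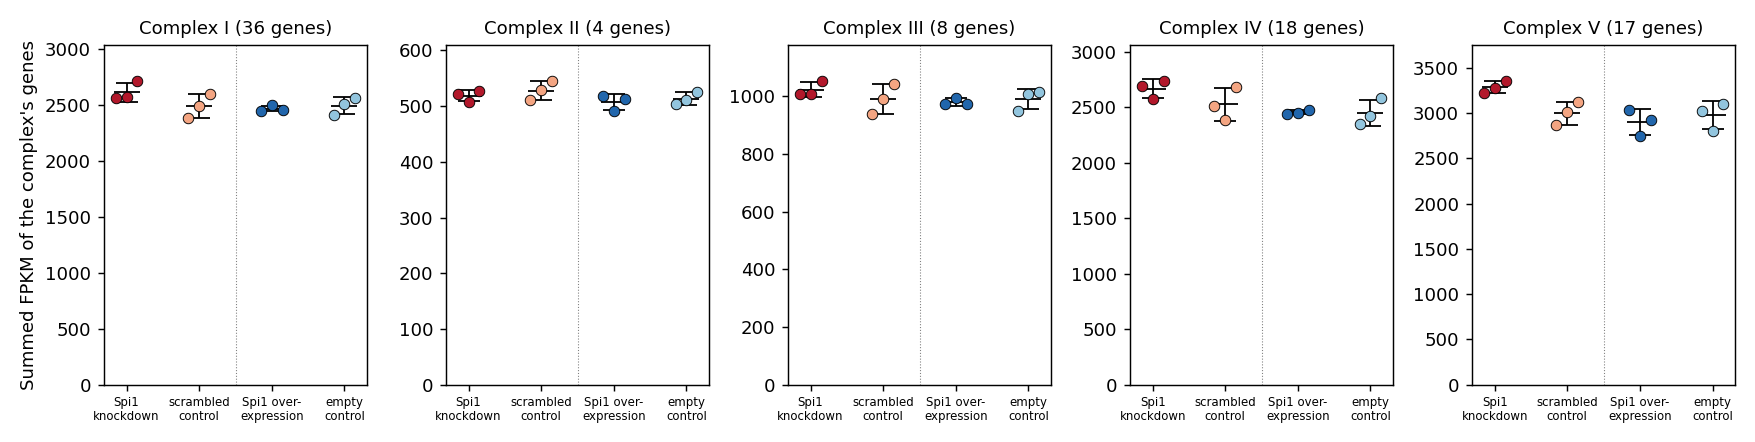
Summed FPKM of the genes of each complex, by group. Points are the 3 libraries of a group in the order 1, 2 and 3, bars show the mean and SD, and axes start at 0. On this deposited scale the complex V sums of knockdown (3222 to 3354 FPKM) lie above those of the 9 other libraries and the complex II sums overlap; with median-of-ratios scaling complex V sums overlap between knockdown and scrambled controls and complex II sums do not.

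The other complexes lay closer to the run of all genes. The median log2 fold change was 0.104 in complex I, 0.051 in complex II, 0.040 in complex III and 0.088 in complex IV. With median-of-ratios scaling complexes I and IV were at 0.024 and 0.0065, and complexes II and III turned to -0.030 and -0.041, so their direction depended on the scaling. The summed level of complex I was 2612 ± 85.9 FPKM in knockdown and 2490 ± 106 FPKM in scrambled controls, that of complex III 1023 ± 25.9 FPKM in knockdown and 990 ± 52.8 FPKM in scrambled controls, and that of complex IV 2669 ± 83.2 FPKM in knockdown and 2529 ± 148 FPKM in scrambled controls (SD, n = 3 each). All 3 overlapped between the groups. In complex III the smallest p belonged to Uqcr11, a small accessory subunit, which was at 96.3, 95.03 and 97.9 FPKM in knockdown, against 80.7, 89.4 and 87.1 FPKM in scrambled controls (log2 fold change 0.17, limma, BH adjusted p = 0.0907). In complex IV it belonged to Cox7a1, which did not pass (log2 fold change -0.29, limma, BH adjusted p = 0.119).

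Counted by overlap, 26 of 78 members had all 3 knockdown libraries above the 3 scrambled controls, beside a similar 30.3% of all tested genes, and 4 had them below, beside 15.1% of genes. With median-of-ratios scaling 10 lay above, beside 20.7% of genes, and 13 below, beside 22.6%, so this balance depended on the scaling. On the deposited scale the 26 were 13 genes of complex I, 9 of complex V, 2 of complex IV and 1 each of complexes II and III. The 4 below were Ndufs6, Ndufv2, Sdhd and Uqcrh. Against all 9 other libraries, 15 of 78 members lay above, beside 6.83% of genes, and 2 of 78 (Sdhd and Ndufv2) lay below, beside 5.74% of genes. This count was made on the deposited scale only, across 2 experiments that share no control library. Of the 15 above, 6 were complex V genes. Within the scrambled controls, library 1 was the lowest of 3 for 46 of 78 members and library 3 for 2. Leaving out scrambled control libraries or knockdown libraries 1 at a time moved the complex V median between 0.106 and 0.160, and that of complex III between -0.013 (without scrambled control 1) and 0.088 (without scrambled control 3).

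Raising Spi1 gave no called member. In limma with BH adjustment 0% of 11217 genes passed, Spi1 among those that did not (log2 fold change 0.81, SE 0.165, limma, BH adjusted p = 0.9999; 0.0357 with the replicate block). At an unadjusted p under 0.05, 0 members and 1.09% of genes were found, and with the block 0 members and 0.116% of genes were called, and limma-voom also called 0 members. All 78 log2 fold changes were smaller than 0.25 in size, the range was -0.16 to 0.19, and the median was -0.023 beside -0.014 for all genes. The complex medians lay between -0.030 and -0.019. The upper end was Ndufs8, a core iron-sulphur subunit of complex I, at 67.4, 51.5 and 58.2 FPKM in overexpression, against 52.1, 50.1 and 51.7 FPKM in empty controls, where the groups overlapped.

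No member had all 3 overexpression libraries above the empty controls, beside 1.66% of genes, and 3 had them all below, beside 2.4% of genes. Uqcrh, the hinge protein of complex III, was at 102, 94.9 and 104 FPKM in overexpression, against 108, 111 and 113 FPKM in empty controls, a log2 fold change of -0.14 that did not pass. Ndufv3 was at 21.1, 19.2 and 21.2 FPKM in overexpression, against 23.1, 21.9 and 23.7 FPKM in empty controls (log2 fold change -0.16, not passed). The members with the smallest p in complexes II, IV and V were Sdhc, Cox7a2 and Atp5o, with log2 fold changes of -0.06, -0.10 and -0.05.

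An interaction contrast over all 12 libraries tested the overexpression effect minus the knockdown effect. It passed for 4.84% of 11224 genes and for 0 of 78 members, 8 of which had an unadjusted p under 0.05 (limma, BH). For Sdhd the difference was 0.42 (SE 0.153, limma, BH adjusted p = 0.143), and it passed with median-of-ratios scaling at 0.51 (limma, BH adjusted p = 0.0352) and with limma-voom (BH adjusted p = 0.0261). With the replicate block, whose counts may be too high, 20 members were called, beside 41.5% of genes, 17 of them with the lower value in overexpression and 3 (Sdhd, Ndufb7 and Ndufb8) with the higher. Sdhd was thus called in knockdown and not in overexpression, but the unblocked fit on the deposited scale does not show this to be a difference. That fit does not model the deviations shared by library number, which correlated at 0.513 to 0.845 in the overexpression experiment. With the block the Sdhd difference of 0.42 passed (limma, BH adjusted p = 0.00373). The simulated libraries that call for caution with the block had no such shared deviations. Whether the Sdhd effects differ therefore depended on the scaling and the fit.

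Cytochrome c oxidase has pairs of genes in which 1 is general and the other is known from particular tissues such as heart, skeletal muscle, lung or testis. In BV2 cells the general gene was the higher of every pair in every library. Over 12 libraries with 321.6 megareads in all, Cox4i2, a lung isoform, had 31 reads, the testis isoform Cox6b2 had 9, Cox7b2 had 2 and the muscle isoform Cox8b had 8. Cox8c had 0, which at 3 counts allows a share of up to 9.33 parts in 1000 megareads and covers counting error only. Their general partners were at 542 to 655 FPKM for Cox4i1, 150 to 172 FPKM for Cox6b1, 93.3 to 119 FPKM for Cox7b and 362 to 473 FPKM for Cox8a.

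The muscle isoforms Cox7a1 and Cox6a2 were the exceptions with a measurable level. Cox7a1 had 11 to 33 reads per library and stood at 1.95, 2.36 and 2.15 FPKM in knockdown, against 3.50, 2.89 and 2.24 FPKM in scrambled controls, while its partner Cox7a2 was at 80.9 to 107 FPKM. The Cox7a1 groups overlapped. Cox6a2 ranged from 0.967 to 8.78 FPKM, beside 313 to 382 FPKM for Cox6a1, and its exons overlap those of Itgad on the opposite strand, a gene at 0.082 to 0.295 FPKM.

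**Figure D4:**
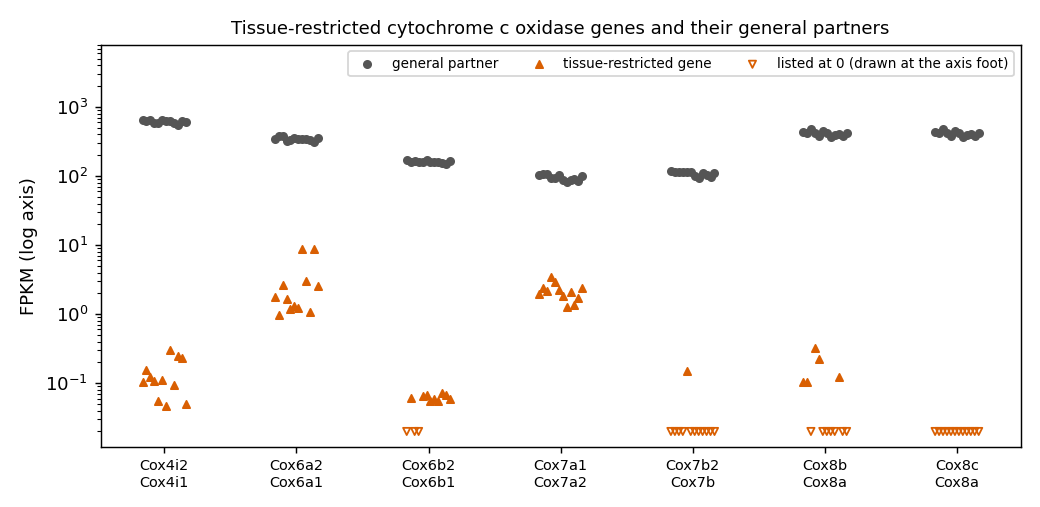
FPKM in each of 12 libraries, on a log axis, of 7 tissue-restricted complex IV genes (triangles) and their general partners (dots), with each pair's tissue-restricted gene named above its partner. Values listed at 0 are drawn as open triangles at the axis foot. The partners lie between 80.9 and 655 FPKM, and Cox6a2 and Cox7a1 alone among the 7 exceed 0.967 FPKM in any library.

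The libraries numbered 2 of the overexpression experiment stood apart for a subset of members, whichever construct they carried. Both of them differed by more than 1.25-fold in the same direction from the mean of libraries 1 and 3 of their group in 11.5% of members, beside 24.2% of genes. In the knockdown experiment the shares were 2.56% of members and 2.81% of genes. The 5 members higher in libraries 2 of the overexpression experiment were Ndufa6, Uqcrq, Cox6a2, Cox7a2l and Atp5g2, and the 4 lower ones were Ndufb2, Cox5b, Atp5b and Atp5k. Ndufb2 and Cox5b were also the 2 lower in libraries 2 of the knockdown experiment.

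Cox6a2 showed this most, at 1.22, 8.78 and 3.03 FPKM in overexpression libraries 1, 2 and 3, against 1.09, 8.70 and 2.56 FPKM in empty controls 1, 2 and 3. Cox7a2l was at 100, 177 and 132 FPKM in overexpression and 97.2, 173 and 133 FPKM in empty controls. Cox5b, a nuclear subunit that binds zinc, was at 125, 104 and 159 FPKM in overexpression and 127, 104 and 170 FPKM in empty controls, and at 181, 117 and 174 FPKM in knockdown and 148, 95.3 and 158 FPKM in scrambled controls. The pattern ran by library number and not by Spi1 construct. It also touched the c subunit genes, among which Atp5g2 held 40.3% and 42.3% in overexpression library 2 and empty control 2, against 26.9% to 36.5% in the other 10 libraries.

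**Figure D5:**
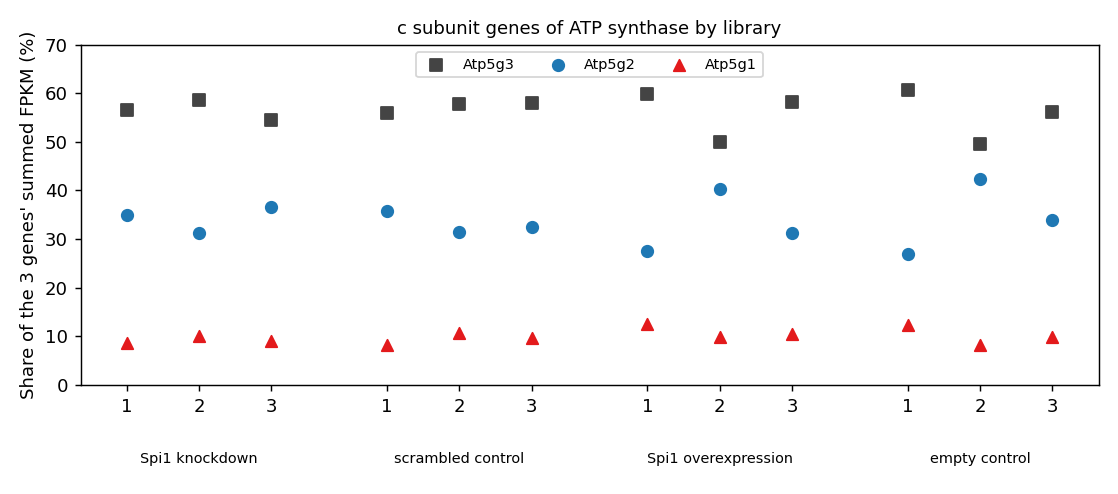
Share in percent of the summed FPKM of Atp5g1, Atp5g2 and Atp5g3 held by each gene, in libraries 1 to 3 of each group. Atp5g2 stands at 40.3% and 42.3% in the libraries numbered 2 of the overexpression experiment, and Atp5g3 is lowest in the same libraries at 49.95% and 49.48%.

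Genes that work beside the members were counted from lists. Of 7 genes listed as belonging with the complexes but outside the name rule, 2 were higher and 1 lower in knockdown, with a median log2 fold change of 0.163. That is 42.9% called, beside 26.3% of all genes. Ndufab1, the acyl carrier protein bound by complex I, rose by 0.23 and Minos1, which belongs to the cristae organising system of the inner membrane and is no respiratory subunit, by 0.18, whereas Cyc1, the cytochrome c1 of complex III, fell by 0.24 on the log2 scale (limma, BH adjusted p = 0.0348, 0.0462 and 0.0249). With median-of-ratios scaling Cyc1 alone of these passed. Cyc1 was at 159 ± 4.90 FPKM in knockdown and 188 ± 5.33 FPKM in scrambled controls (SD, n = 3 each).

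Of 44 assembly factors tested 3 were higher and 1 lower in knockdown (9.09% called, beside 26.3% of all genes), with a median of 0.062. With median-of-ratios scaling 1 was higher and 4 lower (11.4%, beside 24.1% of all genes), with a median of -0.015. With limma-voom 2 were higher and 3 lower (11.4%, beside 27.6% of all genes), with a median of -0.016. The balance and the sign thus depended on the scaling. Cox15, which makes haem A for complex IV, was at 38.7 ± 2.88 FPKM in knockdown and 29.0 ± 2.44 FPKM in scrambled controls, and Cox11, which helps insert copper into the same complex, was at 5.46 ± 0.279 FPKM in knockdown and 7.28 ± 0.199 FPKM in scrambled controls (SD, n = 3 each). Their log2 fold changes were 0.41 and -0.36 (limma, BH adjusted p = 0.0154 and 0.0083), and both passed with median-of-ratios scaling. Acad9, an assembly factor of complex I, had 0.31 (limma, BH adjusted p = 0.0317) and lost its call with median-of-ratios scaling, at 0.24 (limma, BH adjusted p = 0.0573).

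Of 12 regulators tested 3 were higher and 1 lower in knockdown (33.3% called, beside 26.3% of all genes), with a median of 0.116. With median-of-ratios scaling 1 was higher and 1 lower (16.7%, beside 24.1% of all genes). Gabpa was at 14.97 ± 0.370 FPKM in knockdown and 11.3 ± 0.724 FPKM in scrambled controls (SD, n = 3 each), and its log2 fold change was 0.38 (limma, BH adjusted p = 0.00882). It was at 13.8, 13.6 and 14.8 FPKM in overexpression and 14.5, 13.7 and 14.9 FPKM in empty controls, so the scrambled controls were the low group of the 4. Its overexpression effect minus its knockdown effect was -0.41 (limma, BH adjusted p = 0.0387, and 0.0562 with median-of-ratios scaling). Gabpa shares exon sequence with Atp5j on the opposite strand, and unstranded reads over it cannot be assigned to either gene. Tfam, which packages and helps transcribe mitochondrial DNA, rose by 0.29 and lost its call with median-of-ratios scaling, and Esrra, a nuclear receptor that acts on respiratory genes, fell by 0.25 (limma, BH adjusted p = 0.0441 and 0.0259). Nrf1 and Yy1 did not pass, at log2 fold changes of 0.08 and 0.15.

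Of 13 TCA cycle genes 1 was called (7.69%, beside 26.3% of all genes), Suclg2 of succinyl-CoA ligase, with a log2 fold change of 0.48. Their median was 0.092. Of 11 import and porin genes 1 was called (9.09%), the chaperonin Hspd1 with 0.50, and the median was 0.214. Mitochondrial ribosomal protein genes had 9 higher and 0 lower of 77 with a median of 0.153, or 11.7% called beside 26.3% of all genes. With median-of-ratios scaling they had 1 higher and 1 lower (2.6%, beside 24.1% of all genes) with a median of 0.073. With the block they had 33 higher and 1 lower. Cytosolic ribosomal protein genes had 2 higher and 1 lower of 77 (3.9% called) with a median of 0.142, and with the block 39 higher and 1 lower. Import and porin genes had 8 of 11 higher with the block. In either direction the block called 51.9% of cytosolic ribosomal, 44.2% of mitochondrial ribosomal and 72.7% of import and porin genes, beside 45.3% of all genes. Without the libraries numbered 2 in both groups, 1 cytosolic ribosomal protein gene was called (1.3%), beside 4.08% of all genes. No gene of the other lists named so far was called then, whereas 51 of 1255 genes shorter than 1000 bases (4.06%) were. The members' median of 0.088 lay below those of both ribosomal lists. It fell between the 0.072 of all tested genes and the 0.105 of tested genes shorter than 1000 bases. The short class holds 51 of the 78 tested members. Respiratory and ribosomal protein genes have many processed pseudogenes in the mouse genome, and how reads that fit a gene and such a copy were counted is not given in the sources used here.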

How the data were processed

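RNA of 12 sorted BV2 libraries was read on a HiSeq as single reads of 100 bases from an unstranded TruSeq v2 polyA kit, per the labels. The authors deposited FPKM per gene, a unit read from the values, in 1 table per experiment. The submitters' processing notes name STAR 2.5.2a, featureCounts, DESeq2 1.14 and mm10, and the annotation is not given in the sources used here. Whole reads (tolerance 1e-05 of a read) were recovered for all 17842 genes above 0 and gave the depths. The 4 entries whose symbol was repeated were left out.

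Effects were fitted by limma (version 3.58.1, under R 4.3.3) to log2(FPKM + 1) for genes averaging at least 1 FPKM, per experiment and as an interaction, with BH adjustment over all genes tested and a threshold of 0.05. Fold changes on this scale understate those of low genes. Same-numbered libraries correlated in their deviations from the group means at 0.397 (number 1), 0.540 (2) and 0.345 (3) for knockdown with its control and 0.791 (1), 0.845 (2) and 0.513 (3) for overexpression with its control, all above 0.1, so a block fit stands beside the results it changes. Alternatives were the pseudocount 0.1, no filter, a filter at 5 FPKM, median-of-ratios scaling, trend and robust options, limma-voom on recovered reads, the replicate block, and leaving out libraries. The fits were tested on simulated data, where the replicate block made a larger share of false calls than its threshold allows, for knockdown and for the interaction, so block counts may be too high. The simulated libraries were drawn without deviations shared by number, so whether this carries over to the real ones was not tested.

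Members, lists and the naming rule were chosen with earlier results of these data known. The rule named, per complex and experiment, up to 3 called members in each direction or the member with the smallest p, the highest gene of each complex, the isoform pairs, the c subunit genes, and up to 2 called genes per direction from each list. Other named genes were chosen after their values were seen. Of the 48 assembly factors listed, 44 were found. By symbol, 80 members matched RefSeq directly and 3 through synonyms. Of 82 positioned members, 27 overlap an exon of another gene. The values of 1 member are not reported here.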

Additional observations from a re-analysis of the deposited data

Results flagged for a closer look

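The effects of the experiments differed for Spi1 and, among the members and the genes listed beside them, for Gabpa. The log2 fold change of Spi1, the manipulated gene, was 0.81 in overexpression over empty control and -1.75 in knockdown over scrambled control, and the difference of overexpression minus knockdown was 2.56 with a standard error of 0.197 (limma, BH adjusted p = 0.000331). Gabpa had -0.03 in overexpression and 0.38 in knockdown, a difference of -0.41 with a standard error of 0.0963 (limma, BH adjusted p = 0.0387), which lost its call with median-of-ratios scaling (limma, BH adjusted p = 0.0562). Exon sequence that Gabpa shares with Atp5j on the opposite strand holds unstranded reads that cannot be assigned to either gene. The interaction fit on the deposited scale without the block passed for 543 genes in all, and no respiratory chain member was among them.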

How the results depend on the processing

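Counts of called members turned on the scaling and the fit, and the cause was not tested. Counts with the replicate block may be too high, from its false calls on simulated data that lacked deviations shared by library number. Members higher in knockdown numbered 3 on the deposited scale, 6 with no filter, 5 with a filter at 5 FPKM, 5 with trend and robust options, 0 with median-of-ratios scaling, 0 with limma-voom, 19 with the replicate block and 0 without replicate 2 in both groups. Members lower numbered 1, against 4 with median-of-ratios scaling, 4 with limma-voom, 3 with the replicate block and 0 without replicate 2. With the pseudocount 0.1, Ndufa12 and Ndufb3 were called higher and Sdhd lower. All genes called in knockdown numbered 2945 (26.3%), against 2705 (24.1%) with median-of-ratios scaling and 3096 (27.6%) with limma-voom. They numbered 5081 (45.3%) with the block and 457 (4.08%) without replicate 2. For the pseudocount, the filters and the trend and robust options the count of all genes is not given here. Member counts in those settings cannot be set against it. Leaving out 1 library gave 0 to 2 higher, 1 to 2 lower and 1467 to 2197 genes, with 1906, 1715 and 1467 without knockdown 1, 2 and 3.

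Medians in knockdown with median-of-ratios scaling and with limma-voom were 0.024 and 0.027 for complex I, -0.030 and -0.028 for complex II, -0.041 and -0.038 for complex III, 0.0065 and 0.0085 for complex IV, 0.067 and 0.070 for complex V, and 0.0067 and 0.0096 for all members. With 1 library left out they ranged over 0.067 to 0.121, 0.041 to 0.070, -0.013 to 0.088, 0.023 to 0.126, 0.106 to 0.160 and 0.065 to 0.124 in the same order.

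In overexpression the block called 13 genes and no member. The complex IV median was -0.029 with no filter, -0.010 with median-of-ratios scaling, -0.0067 with limma-voom and -0.014 without replicate 2, and the median of all members was -0.0074 with limma-voom. With 1 library left out medians ran from -0.050 to -0.0027 for complex I, -0.048 to 0.0098 for complex II, -0.079 to -0.011 for complex III, -0.033 to 0.036 for complex IV, -0.054 to 0.0059 for complex V and -0.043 to -0.00067 for all members, with 0 genes and 0 members called.

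The difference between effects called 4658 genes and 20 members with the block, 80 genes without replicate 2, 1 member each with no filter (Ndufa8), median-of-ratios scaling and limma-voom (both Sdhd), and 109 to 566 genes and 0 members with 1 library left out, the fewest without scrambled control 2 and over 1.5 times below 543 except without overexpression 3, empty control 1 or 2, or scrambled control 3. Of all genes, 591 were called in this difference with median-of-ratios scaling and 677 with limma-voom. No alternative turned a called value round. The 5 members not tested rest on too few reads for any comparison.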
